A study of Caenorhabditis elegans with 12 samples.

Results

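Whole young adult Caenorhabditis elegans responded to depletion of sqd-1 in both genotypes studied, and the subject here is the difference between those 2 responses. All 12 libraries of the series were used, in 4 groups of 3. The groups were wild-type animals of strain N2 and animals of strain BB20, which carry the deletion allele adr-2(ok735) and are called adr-2(-), each fed bacteria with the empty vector (control RNAi) or with a vector for sqd-1 RNAi. All animals were fed RNAi bacteria and harvested whole. The labels give 60 h of growth in one place and 72 h in another. For each gene, the change on sqd-1 RNAi in wild-type was set against the change in adr-2(-), over the group means and over the same-numbered libraries of a genotype, called pairs here. Of 24619 genes in the files, 14348 had a mean normalised read count of at least 10 over the 12 libraries and were tested. Throughout, a difference is the log2 change in adr-2(-) minus the log2 change in wild-type, so a gene that fell less in adr-2(-) has a positive difference.

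ADR-2 is the adenosine deaminase acting on RNA that edits adenosine to inosine in double-stranded RNA of C. elegans. SQD-1 is an RNA-binding protein of the hnRNP type, and the series asks about a functional relationship between the products of these genes in fertility. In the hermaphrodite gonad, germ cells proliferate at the distal end under Notch signalling, pass through meiosis, become sperm first and then oocytes for the rest of adult life. A growing oocyte loads messenger RNAs and proteins that the embryo will use, among them transcripts for the eggshell, embryonic polarity and DNA replication.

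The libraries held 29042770 to 33984832 reads, of which 12.86 to 23.8 M lay outside ribosomal RNA genes. Ribosomal RNA took 43.5 to 57.83% of the reads in wild-type and 28.97 to 55.94% in adr-2(-). The replicates of adr-2(-) were more variable: the SD of log2 values between replicates had a median over genes of 0.212 and 0.223 for wild-type on control and sqd-1 RNAi, and of 0.476 and 0.504 for adr-2(-). Mitochondrial genes took 3.13% and 4.95% of the reads outside ribosomal RNA in the pair of adr-2(-) replicate 2, and cuticle collagens were low in the pair of adr-2(-) replicate 3. Markers of muscle, intestine, neurons, hypodermis, gonadal sheath, germ cells, oocytes and sperm were all above 10 normalised reads in every group. Nothing in the labels says that replicates came from separate cultures, so p-values measure the spread between these libraries only. In whole worms, fewer cells of a type and less RNA per cell cannot be told apart.

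The targeted genes were examined first. The normalised read count of sqd-1, on chromosome IV at 6324174 to 6326422 of WBcel235, was 12389, 15830 and 14299 in the wild-type controls and 1350, 1391 and 1386 on sqd-1 RNAi. In adr-2(-) it was 11896, 30448 and 19272 in the controls and 1932, 1147 and 1286 on sqd-1 RNAi. The levels on sqd-1 RNAi overlapped between genotypes, and all sqd-1 RNAi libraries lay far below all controls. The pair changes were -3.20, -3.51 and -3.37 in wild-type versus -2.62, -4.73 and -3.90 in adr-2(-), which overlapped. Their difference was -0.39 ± 0.442 (SE, limma, unadjusted p 0.39), and it became 0.094 when the pair of adr-2(-) replicate 2 was left out. The transcript of adr-2 itself stood at 832, 1011 and 810 normalised reads in the wild-type controls and at 340, 487 and 355 on sqd-1 RNAi. In adr-2(-) it lay between 0 and 4.2 normalised reads in all 6 libraries, too low to give a change.

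Genes with the deepest falls, oocyte and eggshell genes among them, had smaller falls in adr-2(-) than in wild-type, but no single gene passed the main test for the difference. No gene passed a Benjamini-Hochberg adjusted p of 0.05 for the difference in limma (0.0% of 14348 genes tested, smallest adjusted p 0.9999), and 207 genes (1.44%) had an unadjusted p under 0.05. The same-numbered libraries of a genotype deviated together, and with each pair as a block limma again called no gene at the adjusted threshold (0.0%, smallest adjusted p 0.141). In that blocked fit 1285 genes (8.96%) had an unadjusted p under 0.05 with a positive difference and 142 genes (0.99%) with a negative one. DESeq2 on the recovered reads with the same block was the only one of the alternatives run that made calls at the adjusted threshold: 294 genes (2.05%) were higher in adr-2(-) and 3 genes (0.0209%) were lower. Of these 297 calls, 293 were genes whose mean change was negative in both genotypes and smaller in adr-2(-). The DESeq2 calls are given below as those of an alternative, not of the main test, and edgeR with the block made no call (smallest adjusted p 0.221).

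The DESeq2 calls varied with the pairs used. Their number was 61.3% of the full one without wild-type pair 1, and there were 105 calls without wild-type pair 3, 477 without adr-2(-) pair 1 and 102 without adr-2(-) pair 3.

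Gene by gene, the 3 pair changes of adr-2(-) all lay above the 3 of wild-type for 1791 genes (12.5%) and all below them for 520 genes (3.62%). With 3 pairs against 3, an exact permutation test of a single gene could not give a two-sided p below 0.1. Of the 1791 genes with a higher change in every adr-2(-) pair, 1567 had a negative mean change in both genotypes and 174 a positive one in both. Of the 520 with a lower change, 268 had a positive mean change in both and 189 had a mean change that was positive in wild-type and negative in adr-2(-). Only 55 genes (0.383%) went in opposite directions in all 6 pairs, 45 of them up in wild-type and down in adr-2(-).

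**Figure D1:**
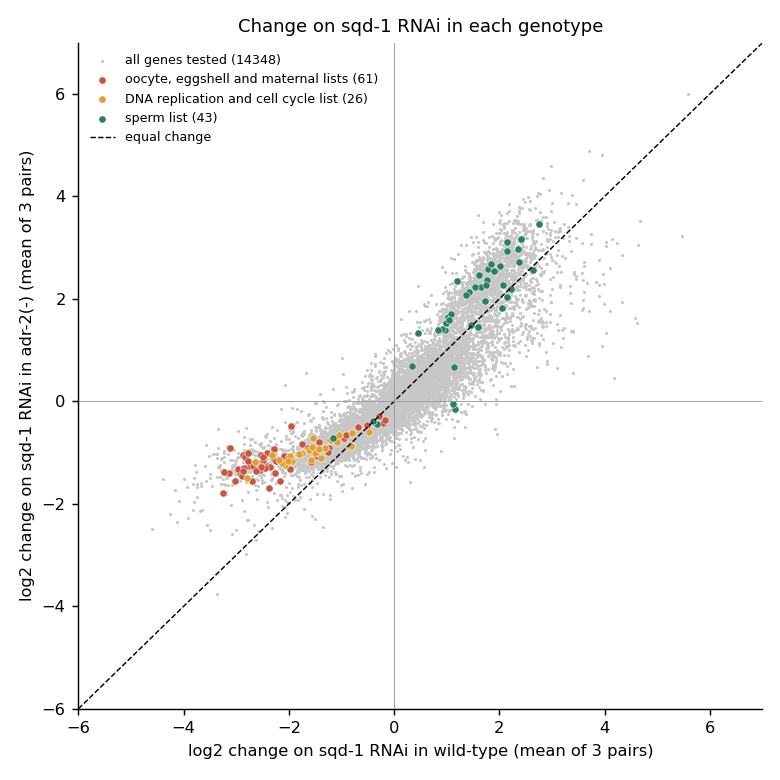
Each point is 1 gene, with its log2 change on sqd-1 RNAi in wild-type on the horizontal axis and in adr-2(-) on the vertical axis (means of 3 pairs, log2 of normalised read count plus 1). The oocyte, eggshell, maternal and DNA replication lists lie to the lower left and mostly above the dashed line of equal change, and the sperm list lies to the upper right.

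Among falling genes, the difference was larger where the shared change was larger. Genes were grouped by the mean of their 2 changes, which gives both genotypes the same weight. The adr-2(-) replicates were more variable, so this grouping may still pick genes with an extreme adr-2(-) change more often. The 141 genes with a mean change between -3 and -2 had a median change of -3.03 in wild-type, as opposed to -1.5 in adr-2(-). The 1508 genes between -2 and -1 had medians of -1.42 and -1.0. Below that size the medians of the genotypes were close. The 5401 genes between -1 and 0 had medians of -0.55 and -0.51, and the 4781 genes between 0 and 1 had medians of 0.46 and 0.33. Of these 4781 genes, 337 had pair changes apart and lower in adr-2(-), and 65 apart and higher.

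Among genes with larger positive changes, the medians were 1.44 in wild-type and 1.53 in adr-2(-) for the 1422 genes between 1 and 2, 2.13 and 2.58 for the 994 genes between 2 and 3, and 3.06 and 3.38 for the 95 genes above 3. The median differences of these groups, 0.12, 0.54 and 0.36, did not grow steadily with the change. Grouping on one genotype alone pulls the other toward 0, so both such groupings were also made. Of the 252 genes with a wild-type change between -3 and -2 the median adr-2(-) change was -1.23. Of the 29 genes with an adr-2(-) change between -3 and -2 the median wild-type change was -2.80. The wild-type change was thus the deeper one in either grouping.

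**Figure D2:**
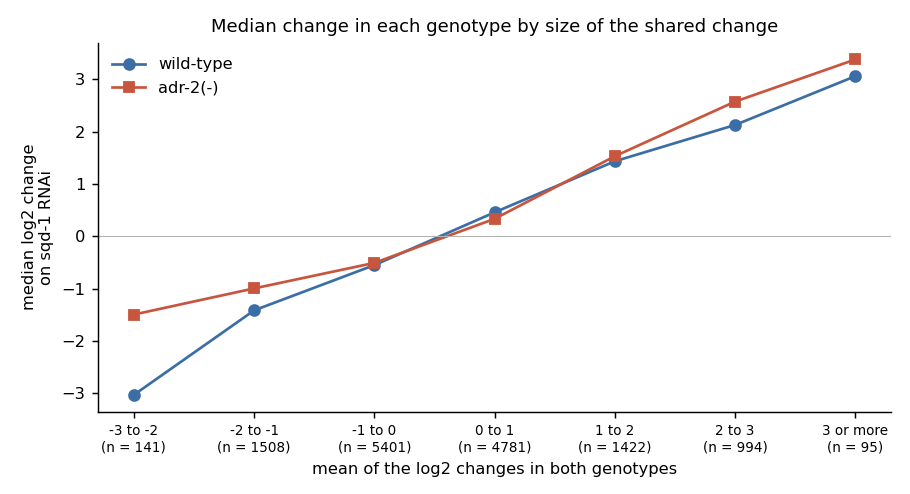
Median log2 change on sqd-1 RNAi in wild-type (circles) and adr-2(-) (squares) for genes grouped by the mean of both changes, with the number of genes under each group. The lines part at the left, where wild-type stands at -3.03 and adr-2(-) at -1.5, and lie close near 0.

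Oocyte genes fell in both genotypes, and the mean fall of every member was smaller in adr-2(-). Of 20 genes for oocyte growth and maturation tested, 20 fell in wild-type and all but the caveolin gene cav-1 (19) in adr-2(-) in the blocked limma fit at an adjusted p of 0.05, where 34.3% and 33.0% of all genes tested fell and 27.1% and 21.2% rose. The median change of the list in each pair was -2.2, -2.07 and -2.59 in wild-type versus -1.5, -1.13 and -1.03 in adr-2(-). The pair changes did not overlap between genotypes for 20 of 20 members, all higher in adr-2(-), beside 12.5% of all genes tested. DESeq2 with the block called 12 of the 20 higher, beside 2.05% of all genes tested. The median difference was 1.06, beside 0.045 over all genes tested. Of the 252 genes with a wild-type change between -3 and -2, 201 were apart and higher, with a median difference of 1.16. Grouped by the mean of both changes, 867 of 1508 genes between -2 and -1 were apart and higher. Between -3 and -2 they were 101 of 141. The share over all genes is thus low beside that of deeply falling genes, here and for the falling lists below.

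The gene lin-41 encodes a TRIM-NHL RNA-binding protein that holds growing oocytes back from premature maturation, and it lies on chromosome I at 9334800 to 9342496 of WBcel235. Its normalised read count was 6500, 8831 and 5824 in the wild-type controls and 1151, 1638 and 745 on sqd-1 RNAi. In adr-2(-) it was 7034, 11862 and 11093 in the controls and 2146, 4657 and 5635 on sqd-1 RNAi. The controls of both genotypes overlapped, and every adr-2(-) library on sqd-1 RNAi lay above every wild-type one. The difference was 1.28 ± 0.558 (SE, limma, unadjusted p 0.0417), with an adjusted p of 0.000621 in DESeq2 with the block.

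For oma-2, a zinc-finger regulator of oocyte maturation and the member with the largest difference, counts were 4085, 5434 and 3887 in the wild-type controls and 603, 800 and 217 on sqd-1 RNAi. They were 4922, 8998 and 7654 in the adr-2(-) controls and 1264, 4211 and 3677 on sqd-1 RNAi. Wild-type replicate 3 on sqd-1 RNAi was the lowest of the 12 libraries, and its pair changed by -4.16, while the other wild-type pairs both changed by -2.76. The adr-2(-) pairs changed by -1.96, -1.10 and -1.06. The PUF-family RNA-binding gene puf-6, near-identical to puf-7 and so uncertain as a single gene, changed by -2.27, -2.32 and -2.65 in wild-type versus -1.63, -1.16 and -1.01 in adr-2(-). The RNA-binding gene spn-4, which overlaps ZC404.15 on the opposite strand, changed by -2.97, -2.58 and -3.53 and by -2.0, -1.46 and -1.19.

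**Figure D3:**
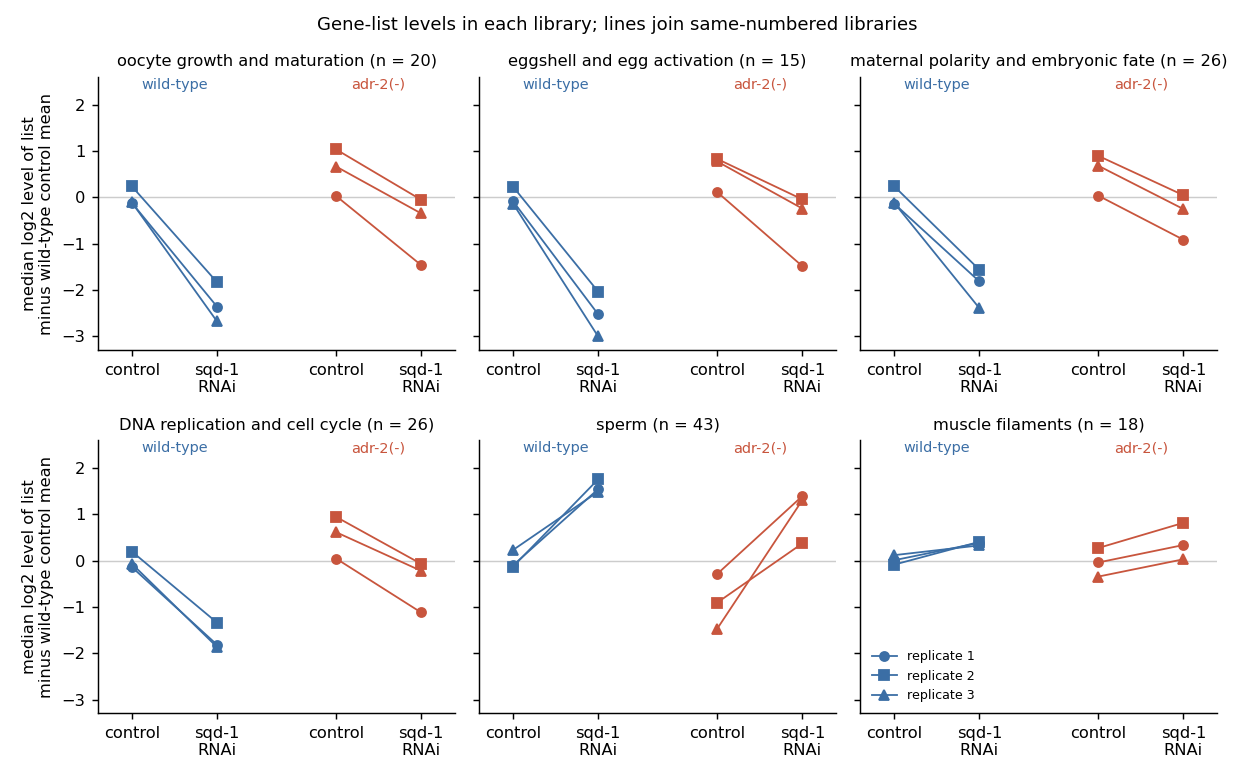
Median log2 level of 6 gene lists in each of the 12 libraries, relative to the mean of the wild-type controls, with lines joining same-numbered libraries. In the oocyte, eggshell, maternal and DNA replication lists the lines of wild-type drop more steeply than those of adr-2(-), and for the sperm list the slopes overlap.

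Eggshell and egg activation genes showed the widest median difference of the 22 lists, at 1.36. The pair medians were -2.44, -2.2 and -2.93 in wild-type versus -1.67, -1.05 and -1.06 in adr-2(-). Of 15 members, 13 fell in wild-type, 14 fell in adr-2(-), the pair changes of 12 were apart and higher in adr-2(-), and DESeq2 with the block called the same number. Over all genes tested, the shares were 34.3% and 33.0% fallen, 12.5% apart and higher, and 2.05% called. The pair changes of the other 3 members overlapped between genotypes. They were mbk-2, a kinase of the oocyte-to-embryo transition, and perm-2 and perm-4, needed for the permeability barrier of the eggshell.

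The chitin synthase gene chs-1, which makes the chitin layer of the eggshell, had the lowest unadjusted p of all genes in the blocked limma fit. It lies on chromosome I at 7554855 to 7559916 of WBcel235. Its normalised read count was 7592, 9619 and 6792 in the wild-type controls and 851, 1093 and 607 on sqd-1 RNAi. In adr-2(-) it was 7857, 12260 and 12394 in the controls and 1846, 3536 and 4509 on sqd-1 RNAi. All 3 adr-2(-) libraries on sqd-1 RNAi lay above all 3 of wild-type. The pair changes were -3.16, -3.14 and -3.48 against -2.09, -1.79 and -1.46, a difference of 1.48 ± 0.488 (SE, limma, unadjusted p 0.0115). With the block the unadjusted p was 5.78e-05 and the adjusted p 0.141, and DESeq2 with the block gave an adjusted p of 2.4e-06.

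The largest difference among eggshell genes was 1.78 for cpg-3, a chondroitin proteoglycan of the eggshell, with pair changes of -2.62, -2.17 and -3.54 in wild-type versus -1.67, -0.52 and -0.81 in adr-2(-). The pseudophosphatase genes egg-4 and egg-5, near-identical copies whose reads may be divided between them, had differences of 1.08 ± 0.587 and 1.26 ± 0.647 (SE, limma, unadjusted p 0.0923 and 0.0762). The cytochrome P450 genes cyp-31A2, cyp-31A3 and cyp-31A5, of which the first 2 are known to make a lipid layer of the eggshell, are also similar to each other. Their differences were 0.94 ± 0.495, 0.51 ± 0.492 and 0.82 ± 0.354 (SE, limma, unadjusted p 0.0837, 0.322 and 0.0409). Over all 52 cytochrome P450 genes tested the median difference was -0.08, so these 3 stood on one side of a list centred near 0.

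Maternal genes of embryonic polarity and cell fate had pair medians of -1.74, -1.82 and -2.36 in wild-type versus -1.08, -0.87 and -0.94 in adr-2(-). Of 26 members, 24 fell in each genotype, 19 had pair changes apart and higher in adr-2(-), and 13 were called by DESeq2 with the block, against the 34.3%, 33.0%, 12.5% and 2.05% of all genes tested. The CCCH zinc-finger genes mex-1, mex-5, mex-6, pie-1 and pos-1, whose proteins divide soma from germline in the early embryo, had differences of 1.42, 0.97, 1.44, 1.16 and 1.53. Of these, mex-1 was taken by rule and the others after their values were seen. The 6 par genes, which set up the axis of the embryo and act in other tissues as well, had differences between -0.18 and 0.39.

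The gene mex-1, which overlaps acbp-6 on the opposite strand, stood at 3078, 4158 and 3203 normalised reads in the wild-type controls and 578, 791 and 342 on sqd-1 RNAi. In adr-2(-) it stood at 3637, 6896 and 5750 in the controls and 1183, 3344 and 2652 on sqd-1 RNAi. The 2 sqd-1 RNAi groups did not overlap, while the control groups did. The difference was 1.42 ± 0.586 (SE, limma, unadjusted p 0.0342). For mom-2, the Wnt ligand that polarises the endoderm precursor, the pair changes were -2.23, -2.54 and -2.89 and -1.51, -1.39 and -1.14. For zif-1, an adaptor that sends zinc-finger proteins to degradation and overlaps rab-6.1 on the opposite strand, they were -2.42, -2.22 and -2.74 and -1.36, -1.46 and -1.10. The widest difference of the list was 2.2 for meg-1, a component of embryonic P granules, where wild-type pair 3 changed by -4.62 and the other wild-type pairs by -2.42 and -2.30.

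DNA replication and cell cycle genes fell in all 26 members in both genotypes. The pair medians were -1.67, -1.54 and -1.80 in wild-type versus -1.15, -1.01 and -0.91 in adr-2(-), and 22 members had pair changes apart and higher in adr-2(-). DESeq2 with the block called 12 of the 26. Over all genes tested, 34.3% fell in wild-type and 33.0% in adr-2(-), 12.5% were apart and higher, and 2.05% were called higher. The median difference was 0.71, and it was 0.45 without adr-2(-) control replicate 1. All 6 members of the MCM helicase, which unwinds DNA at replication origins, had positive differences of 0.49 to 0.93, and orc-1, the large subunit of the origin recognition complex, had a difference of 0.86.

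The counts of orc-1 were 1808, 2130 and 1695 in the wild-type controls and 435, 570 and 393 on sqd-1 RNAi. They were 1789, 3529 and 3205 in the adr-2(-) controls and 748, 1565 and 1540 on sqd-1 RNAi. The pair changes were tightly grouped within each genotype, at -2.05, -1.90 and -2.11 in wild-type versus -1.26, -1.17 and -1.06 in adr-2(-). The B-type cyclin gene cyb-3 had a difference of 1.3 ± 0.7 (SE, limma, unadjusted p 0.0895). The B-type cyclin gene cyb-1 and cdk-2, at -0.12 and -0.05, were the 2 members of the list with negative differences. The DNA ligase gene lig-1, outside this list, stood at 2403, 2936 and 2326 and then 493, 856 and 521 in wild-type, and at 2227, 3707 and 4390 and then 1021, 1731 and 2367 in adr-2(-). Its pair changes, -2.28, -1.78 and -2.16 against -1.12, -1.10 and -0.89, again did not overlap.

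Genes upstream of oocyte differentiation showed the same sign with a smaller median. Of 26 germline sex determination genes, 23 fell in each genotype (34.3% and 33.0% of all genes tested), 11 had pair changes apart and higher in adr-2(-) (12.5% of all genes tested), and the median difference was 0.29. Of 41 genes of germline stem cells and meiosis, 39 fell in wild-type and 38 in adr-2(-), 14 were apart and higher in adr-2(-), and the median difference was 0.24. Across the alternatives run these medians ranged from 0.058 to 0.483 and from 0.068 to 0.456, with the lowest sex determination value, 0.058, found when replicate 3 of adr-2(-) on sqd-1 RNAi was left out.

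The gene fem-3, which promotes sperm fate in the hermaphrodite germline, had the largest difference of its list. It lies on chromosome IV at 9104966 to 9107607 of WBcel235. Its counts were 734, 893 and 800 in the wild-type controls and 159, 307 and 197 on sqd-1 RNAi, and in adr-2(-) they were 716, 660 and 1149 and then 399, 495 and 809. The control levels of the genotypes overlapped, and the lowest adr-2(-) library on sqd-1 RNAi lay above the highest wild-type one. The pair changes were -2.2, -1.54 and -2.02 against -0.84, -0.41 and -0.51, a difference of 1.33 ± 0.46 (SE, limma, unadjusted p 0.0147, DESeq2 with the block adjusted p 0.000727). The translational repressor gene gld-1 and the PUF gene puf-8 had differences of 0.81 ± 0.52 and 0.66 ± 0.474 (SE, limma, unadjusted p 0.149 and 0.194).

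The Tob-family gene fog-3, needed for germ cells to become sperm, rose in both genotypes. It went from 27.1, 30.5 and 33.0 to 357, 547 and 567 in wild-type, and from 17, 20.6 and 13.1 to 511, 482 and 483 in adr-2(-). The libraries on sqd-1 RNAi overlapped between genotypes, and the control libraries did not. The pair changes were 3.67, 4.12 and 4.06 against 4.83, 4.48 and 5.10, a difference of 0.85 ± 0.349 (SE, limma, unadjusted p 0.0326, DESeq2 with the block adjusted p 0.354).

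In the Notch pathway that maintains germline stem cells, the receptor gene glp-1, which overlaps ZK507.1 on the opposite strand, changed by -1.96, -1.93 and -2.04 in wild-type versus -1.24, -1.39 and -0.81 in adr-2(-). Its target sygl-1 changed by -1.89, -1.93 and -2.74 against -1.46, -0.87 and -0.92. Both sets of changes were apart. The transcription factor gene of the pathway, lag-1, overlapping M03D4.3 on the opposite strand, changed by -1.53, -1.63 and -1.84 against -0.96, -1.33 and -0.89. The differences were 0.83 ± 0.392, 1.10 ± 0.616 and 0.61 ± 0.49 (SE, limma, unadjusted p 0.057, 0.101 and 0.241), and DESeq2 with the block called glp-1 and sygl-1.

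Small RNA pathway genes were mixed. Of 22 P granule and Argonaute genes, 18 fell in each genotype and 8 had pair changes apart and higher in adr-2(-), beside the same 34.3%, 33.0% and 12.5% of all genes tested. The median difference was 0.20, with a range of 0.011 to 0.312 over the alternatives run. DESeq2 with the block called 3 of the 22 higher, all Argonautes, beside 2.05% of all genes tested. They were ergo-1, a partner of endogenous small RNAs, with a difference of 0.93 ± 0.462, alg-5 with 0.82 ± 0.459, and the nuclear hrde-1, which carries silencing between generations, with 0.62 ± 0.444 (SE, limma, unadjusted p 0.0687, 0.101 and 0.191). Reads of ergo-1 overlap pei-2 and those of alg-5 overlap cfi-1 on the opposite strand. The hrde-1 pairs were among the closest in wild-type, at -1.78, -1.77 and -1.79, and stood at -1.26, -1.32 and -0.90 in adr-2(-).

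Genes that process double-stranded RNA, the substrate of ADR-2, had a median difference of 0.10 over 33 members. Of these, 26 fell in wild-type (34.3% of all genes tested) and 27 in adr-2(-) (33.0%), and 7 had pair changes apart and higher in adr-2(-) (12.5% of all genes tested), 0 lower. DESeq2 with the block called 0 of them. The double-stranded RNA channel gene sid-1 changed by -1.13, -1.21 and -1.24 in wild-type versus -0.65, -0.66 and -0.59 in adr-2(-). The exonuclease gene eri-1 changed by -1.16, -1.10 and -1.24 against -0.64, -0.49 and -0.64. For rde-4, whose product binds double-stranded RNA for Dicer, the changes were -1.34, -1.07 and -1.24 against -0.71, -0.82 and -0.64. The 3 pair changes of each gene lay close together within a genotype, and the differences were 0.56 ± 0.385, 0.58 ± 0.36 and 0.49 ± 0.433 (SE, limma, unadjusted p 0.174, 0.137 and 0.278). Over all alternatives the median of this list ranged from -0.169 to 0.331.

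Sperm genes rose in both genotypes, and their changes overlapped. Of 43 sperm genes, 38 rose in wild-type while 37 rose in adr-2(-), beside 27.1% and 21.2% of all genes tested. The pair medians were 1.68, 2.04 and 1.22 in wild-type versus 1.81, 1.49 and 2.91 in adr-2(-). Pair changes of 3 members were apart and higher in adr-2(-) and those of 2 were lower, below and near the 12.5% and 3.62% of all genes tested. The median difference of 0.55 became 0.071 without the pair of adr-2(-) replicate 3, whose control library had the lowest sperm level of the 12, at -1.47 relative to the wild-type controls.

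Among 27 major sperm protein genes, a family of near-identical copies whose reads cannot be assigned to single genes with certainty, 20 rose in wild-type and 27 in adr-2(-). Over all genes tested, 27.1% rose in wild-type and 21.2% in adr-2(-). All 27 differences were positive, beside 55.6% of all genes tested, with a median of 0.60. As the copies may share reads, the 27 are not separate observations. Pair changes were apart in 0 members, beside 12.5% (higher) and 3.62% (lower) of all genes tested. The pair medians were 1.5, 1.31 and 0.25 in wild-type versus 0.96, 1.40 and 2.41 in adr-2(-). Without adr-2(-) control replicate 3 the median was -0.021. Pair 3 of wild-type was the lowest of its genotype and pair 3 of adr-2(-) the highest of its own, and in this order the 2 genotypes overlapped.

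The gene spe-44, a transcription factor of the spermatogenesis programme, was the sperm gene that DESeq2 with the block called lower in adr-2(-). It lies on chromosome IV at 12452063 to 12454215 of WBcel235. Its counts were 276, 321 and 291 in the wild-type controls and 600, 649 and 685 on sqd-1 RNAi, and in adr-2(-) they were 283, 628 and 418 and then 463, 441 and 332. Every wild-type library on sqd-1 RNAi lay above every wild-type control, whereas the groups of adr-2(-) overlapped. The pair changes were 1.12, 1.02 and 1.23 against 0.70, -0.51 and -0.33, a difference of -1.17 ± 0.377 (SE, limma, unadjusted p 0.0102, DESeq2 with the block adjusted p 0.0288). Of the 43 sperm genes, 9 had negative differences, and that of the protease gene try-5, whose product activates sperm, was the most negative at -1.31, also with pair changes apart. The vesicle trafficking gene spe-39, which acts beyond sperm, fell in both genotypes, with changes of -1.14, -1.06 and -1.3 against -0.81, -0.62 and -0.73.

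**Figure D4:**
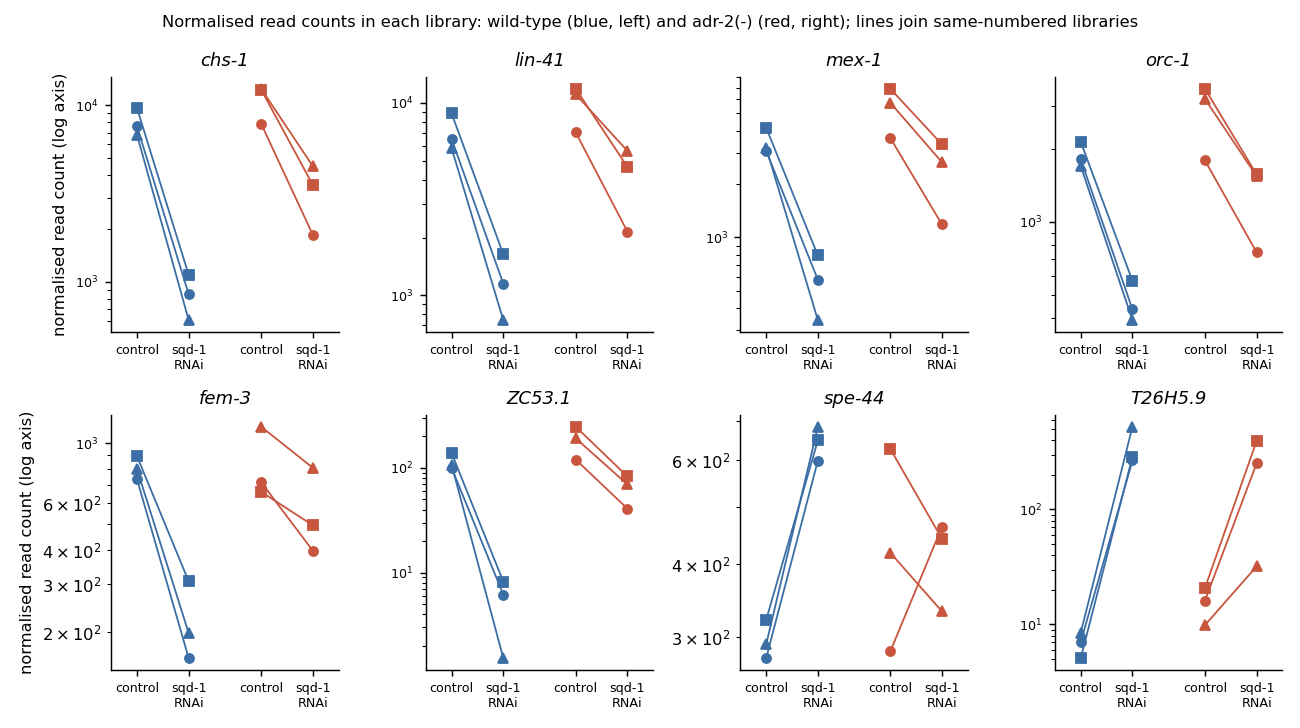
Normalised read counts of 8 genes in each library on log axes, with wild-type on the left and adr-2(-) on the right of each panel and lines joining same-numbered libraries. For chs-1, lin-41, mex-1, orc-1, fem-3 and ZC53.1 the sqd-1 RNAi libraries of wild-type lie below those of adr-2(-), for spe-44 they lie above them, and for T26H5.9 they overlap.

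The largest positive differences among the genes chosen by rule were in 5 genes known only by sequence names, 4 of them on the X chromosome. The gene ZC53.1, on X at 1910943 to 1913357 of WBcel235, stood at 100, 139 and 108 normalised reads in the wild-type controls and at 6.17, 8.22 and 1.53 on sqd-1 RNAi. In adr-2(-) it stood at 120, 247 and 192 and then at 40.9, 82.9 and 69.5. The wild-type level on sqd-1 RNAi was within a few reads of 0 in every library, and that of adr-2(-) was not. Its difference was 2.87 ± 0.679 (SE, limma, unadjusted p 0.0014, DESeq2 with the block adjusted p 0.000456).

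The gene R04D3.3 on X stood at 1342, 1508 and 1060 and then 136, 240 and 37.5 in wild-type, and at 2212, 1078 and 2392 and then 771, 991 and 1294 in adr-2(-). The adr-2(-) groups overlapped, and the fall in adr-2(-) did not pass the blocked limma test (adjusted p 0.1). Its difference was 2.73 ± 0.793, and those of K04C1.5 and W06D11.3 on X and F40G12.11 on V were 2.55 ± 0.73, 2.44 ± 0.814 and 2.43 ± 0.705 (SE, limma, unadjusted p 0.00542, 0.00496, 0.012 and 0.00539). In each of these 4 genes wild-type pair 3 changed most, by -4.79, -4.98, -4.70 and -4.13.

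By chromosome, the share of genes with pair changes apart and higher in adr-2(-) was 17.4% on I, 13.6% on II, 14.5% on III, 12.3% on IV, 10.1% on V and 6.6% on X. Of the 6 nuclear chromosomes X thus had the lowest share, and 0 of the 14 mitochondrial genes tested were apart and higher. Among genes with a mean of both changes between -2 and -1, the median difference was 0.64 for the 87 genes on X and 0.44 for the 1421 on autosomes. Between -3 and -2 it was 1.83 for 33 genes on X and 1.55 for 108 on autosomes.

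Outside the germline lists, the C-type lectin genes clec-87, clec-88 and clec-91 fell with the oocyte genes. The counts of clec-87, which overlaps iars-2 on the opposite strand, were 6630, 8984 and 6937 and then 1029, 1531 and 470 in wild-type, and 8343, 19133 and 12905 and then 2332, 9719 and 6615 in adr-2(-). The sqd-1 RNAi groups did not overlap. The differences of the 3 genes were 1.78 ± 0.77, 1.53 ± 0.638 and 1.59 ± 0.733 (SE, limma, unadjusted p 0.0411, 0.0352 and 0.0534), while the median over 93 lectins tested was -0.005. The innexin genes inx-14 and inx-22, which form the germ cell side of gap junctions with the gonadal sheath, had differences of 0.84 ± 0.463 and 0.92 ± 0.432 (SE, limma, unadjusted p 0.098 and 0.0571). Reads of inx-14 overlap kbrl-1 on the opposite strand.

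In the list of 11 gonadal sheath and spermatheca genes, the other 9 members had differences between -0.40 and 0.02, among them the sheath innexins inx-8 and inx-9 and the sheath markers lim-7 and ceh-18, and the median was -0.08.

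Genes with a lower change in adr-2(-) were fewer. T26H5.9 went from 7.03, 5.09 and 8.47 to 266, 287 and 524 in wild-type, and from 16, 20.6 and 9.85 to 251, 393 and 32.0 in adr-2(-). The low adr-2(-) value was replicate 3. The difference was -2.24 ± 1.05 (SE, limma, unadjusted p 0.0566, DESeq2 with the block adjusted p 0.0384). The third gene called lower by DESeq2 with the block beside spe-44 and T26H5.9 was F09E10.15, an annotated non-coding RNA on X with an adjusted p of 0.0391.

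Its counts were 93.3, 120 and 148 and then 135, 97.7 and 181.9 in wild-type, and 260, 24.4 and 158 and then 98.7, 18.9 and 56.7 in adr-2(-). Its pair changes were 0.52, -0.29 and 0.29 against -1.39, -0.35 and -1.46, which lay close at pair 2.

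Of 87 UDP-glucuronosyl and glutathione transferases, enzymes that conjugate small molecules, 7 had pair changes apart and lower in adr-2(-), beside 3.62% of all genes tested, and 2 apart and higher. In the blocked limma fit 4 had an unadjusted p under 0.05 with a negative difference, beside 0.99% of all genes tested, and 0 with a positive one. The median difference of the list was -0.07, with a range of -0.143 to 0.017 over the alternatives run. The UDP-glucuronosyltransferase gene ugt-62 had pair changes of -0.09, -0.28 and 0.04 in wild-type versus -0.47, -0.74 and -0.68 in adr-2(-). Its counts on sqd-1 RNAi were 3472, 2992 and 2939 in wild-type versus 3359, 3138 and 3320 in adr-2(-), while the controls stood at 3701, 3630 and 2854 and at 4667, 5259 and 5303. The genotypes were thus alike on sqd-1 RNAi and apart on control RNAi. The related ugt-63 had pair changes of -0.08, -0.30 and -0.03 against -0.68, -0.65 and -0.77. Outside that list, the cystathionine beta-synthase gene cbs-1 had pair changes of 0.65, 0.61 and 0.70 against 0.20, 0.22 and 0.25. The differences of these 3 genes were -0.52 ± 0.236, -0.57 ± 0.32 and -0.43 ± 0.344 (SE, limma, unadjusted p 0.0493, 0.104 and 0.238).

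The lists of somatic and general cell functions had medians nearer to 0. The median difference was 0.05 for 18 muscle filament genes, -0.10 for 14 neuronal secretion genes, -0.05 for 78 cytoplasmic ribosomal protein genes, -0.11 for 16 genes of the intracellular pathogen response and 0.12 for 32 histone genes. Pair changes were apart in at most 2 members of any of these lists. The 17 heat shock genes had a median difference of -0.11, which stayed negative over the alternatives run (-0.262 to -0.024), and 13 of them had negative differences. Their pair medians were 0.10, 0.34 and 0.36 in wild-type versus -0.12, -0.26 and -0.11 in adr-2(-), which did not overlap, while 1 member had pair changes apart. The 137 cuticle collagens had a median of 0.04 but ranged from -0.991 to 0.922 over the alternatives run, and their level relative to the wild-type controls was -2.30 and -2.16 in the control and sqd-1 RNAi libraries of adr-2(-) replicate 3. The collagens dpy-2, dpy-3, dpy-7, dpy-8, dpy-9 and dpy-10, needed for the annular furrows of the cuticle, had mean changes of 2.16 to 4.32 in wild-type and 0.90 to 1.93 in adr-2(-). Their differences lay between -2.68 and -1.27, their pair changes overlapped between genotypes, and DESeq2 with the block called 0 of the 6 (adjusted p 0.247 to 0.67). The adr-2(-) pairs differed widely, at 3.22 to 5.51 in pair 1 and -1.53 to -0.24 in pair 3, the pair with low collagen levels.

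The 6 vitellogenins, yolk proteins made in the intestine and taken up by oocytes, had a median of 0.25, which ranged from -0.102 to 0.463 over the alternatives run and so changed sign. The counts of vit-2 were 346190, 309705 and 254117 and then 292988, 281106 and 158771 in wild-type, and 314192, 430072 and 430190 and then 286022, 458858 and 397728 in adr-2(-), and its reads overlap C42D8.9 on the opposite strand. The lowest library was wild-type replicate 3 on sqd-1 RNAi, and the difference was 0.30 ± 0.5 (SE, limma, unadjusted p 0.559).

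The difference between the 2 changes also equals the genotype difference on sqd-1 RNAi minus that on control RNAi, and both parts were measured. The oocyte list stood higher in adr-2(-) by a median of 0.58 on control RNAi and by 1.63 on sqd-1 RNAi. The eggshell list stood higher by 0.64 and 1.90, the maternal list by 0.48 and 1.42, and the DNA replication list by 0.51 and 1.19. For these 4 lists the genotypes were therefore farther apart on sqd-1 RNAi than on control RNAi.

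On control RNAi the oocyte list in adr-2(-) stood at 0.03, 1.04 and 0.67 relative to the wild-type controls, which themselves lay at -0.12, 0.24 and -0.11. Replicate 1 of adr-2(-) lay within the wild-type range, and replicates 2 and 3 above it. On sqd-1 RNAi adr-2(-) stood at -1.46, -0.05 and -0.35 and wild-type at -2.36, -1.83 and -2.68, which did not overlap. The sperm list stood lower in adr-2(-) on both, by 1.03 on control RNAi and by 0.54 on sqd-1 RNAi as medians (-1.03 and -0.54).

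**Figure D5:**
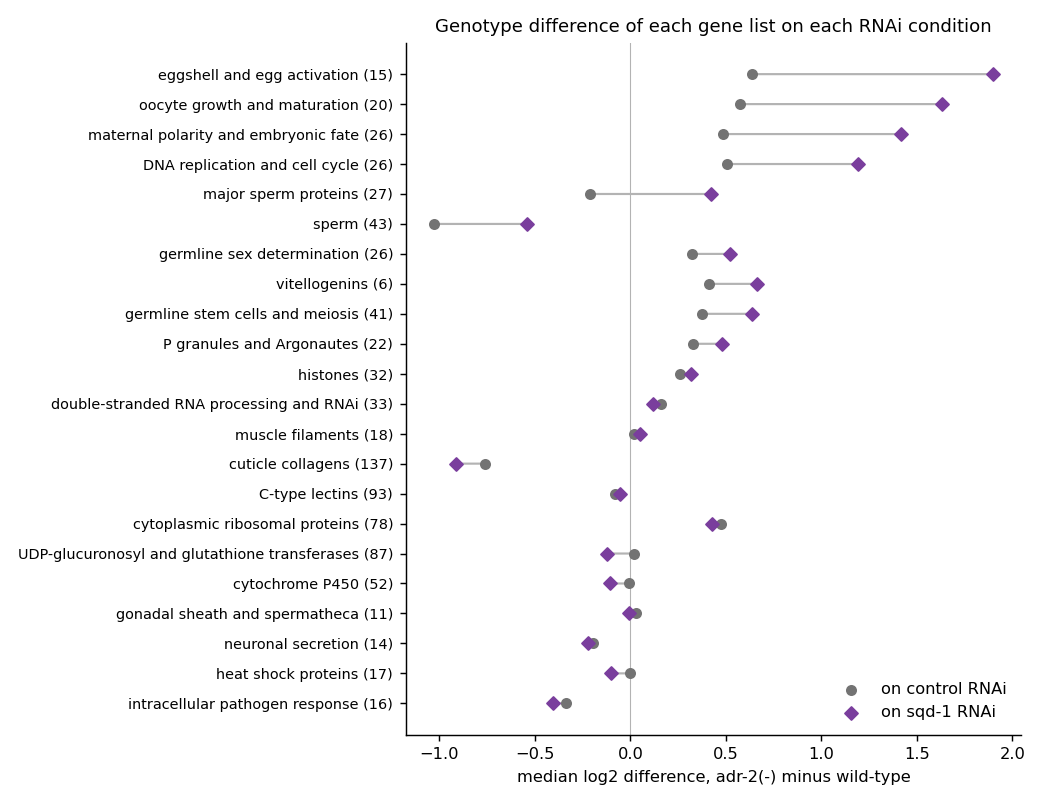
Median log2 difference between adr-2(-) and wild-type for each gene list (number of genes in parentheses) on control RNAi (circles) and on sqd-1 RNAi (diamonds). The distance between the symbols is a difference of medians and need not equal the median difference of the list. For the cuticle collagens the symbols lie at -0.76 and -0.91, while the median difference was 0.04. The eggshell, oocyte, maternal and DNA replication lists have the widest distances, with the diamonds at 1.90, 1.63, 1.42 and 1.19.

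The summed levels of marker genes are given beside these results. Many of the markers are also list members, among them lin-41, oma-2, gld-1, pgl-1, glh-1, inx-8, myo-3 and unc-13. These are not all of them, and the sums at least partly restate the lists. The 5 oocyte markers summed to 30383 to 42560 normalised reads in the wild-type controls and 3327 to 8374 on sqd-1 RNAi, and to 37923 to 71637 and 11674 to 33255 in adr-2(-). The 5 germ cell markers summed to 33743 to 43410 and 13255 to 18051 in wild-type, and to 37608 to 61964 and 19329 to 30011 in adr-2(-). Both sums were higher in every adr-2(-) library on sqd-1 RNAi than in every wild-type one. The germ cell markers were not alike: the difference was 0.81 for gld-1, 0.50 for pgl-1 and -0.11 for glh-1. The 5 sperm markers summed to 2337 to 3054 in the wild-type controls and 7354 to 9776 on sqd-1 RNAi, and to 768 to 2099 and 7219 to 7982 in adr-2(-). These sums did not overlap between genotypes on control RNAi and overlapped on sqd-1 RNAi. The part of cell numbers in the differences was not tested.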

How the data were processed

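The labels put 12 libraries of poly-A RNA in 4 groups of 3, numbered 1 to 3. Per the submitters' processing notes, STAR (2.7.10b) and DESeq2 were used; the read counter, its use of strand and the genome build are not given in the sources used here, and the kit was a stranded one. Per the file headers, the authors deposited DESeq tables with log2 fold changes, p-values and 1 normalised signal per gene and library, a read count divided by a size factor. Of 229041 signal values above 0, 100.0% were whole reads once that factor was undone (tolerance 1e-06), and the reads were put on 1 median-of-ratios scale over the 12 libraries. Genes absent from a table were set to 0. A floor of reads and their shares cover counting error only, and no molecular identifiers were used.

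Differences were tested with limma (3.58.1, R 4.3.3; lmFit, eBayes with a trend) on log2(value + 1), which understates changes of low genes, with Benjamini-Hochberg adjustment over all 14348 genes at 0.05. Same-numbered libraries deviated together within a genotype (correlations across genes of 0.244, 0.257 and 0.269 for N2 against 0.632, 0.819 and 0.684 for adr-2(-), and at most -0.088 and 0.171 for unlike numbers), so fits with the pair as a block are given. What a replicate number marks is not in the labels. DESeq2 (1.42.0) and edgeR (4.0.16) were run on the recovered reads. Limma and edgeR, each with and without the block, and DESeq2 with the block were also run on simulated reads. The simulation had no pair effect and the same spread in both genotypes, unlike these libraries. DESeq2 with the block gave no adjusted p for 3060 genes. Other alternatives were pseudocounts of 0.1 and 10, a minimum mean of 50 or none, other scalings, array weights, and each library or pair left out.

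The 22 gene lists and the members shown were chosen with earlier results of these data known. Named genes were the targets, then, among genes with a mean of at least 100 in a group and pair changes apart, the 8 with the lowest blocked p and 4 with the largest difference in each direction, then up to 3 per list by blocked p; not all are printed. The genes oma-2, cpg-3, meg-1, cyb-3, fog-3, mbk-2, perm-2, perm-4, mex-5, mex-6, pie-1, pos-1, lim-7, ceh-18, inx-8, inx-9, try-5 and the 6 dpy collagens were chosen after their values were seen. Coordinates and overlaps come from the Ensembl annotation of WBcel235, whose match to the authors' build is not stated.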

Additional observations from a re-analysis of the deposited data

Results flagged for a closer look

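DESeq2 with the replicate block called 297 genes for a difference between genotypes in the change on sqd-1 RNAi, a test of the difference itself. Of these genes, 296 had pair changes that did not overlap between genotypes, beside 12.5% (higher) and 3.62% (lower) of all genes tested. All 297 had an unadjusted p under 0.05 both in limma with the block and in edgeR with the block. In blocked limma that held for 8.96% (positive difference) and 0.99% (negative) of all genes tested. These counts use the same libraries and the same contrast as the calls, so they are not independent support. In limma and edgeR with the block, 0 genes passed the adjusted threshold (smallest adjusted p 0.141 and 0.221).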

How the results depend on the processing

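No gene passed the adjusted threshold in limma under any alternative run, with each library left out in turn included, nor in edgeR with or without the block or in DESeq2 without it; with the replicate block DESeq2 called 297 genes, and 102 to 477 with 1 pair left out. Genes with pair changes apart numbered 2237 to 3166 (higher in adr-2(-)) and 857 to 1673 (lower) with 1 pair left out. With fewer pairs, more genes separate by construction. With all pairs, the lower count was 878 with no filter and 314 at a mean of at least 50. With libraries or pairs left out, the median difference ranged from 0.828 to 1.475 for the oocyte list, from 1.033 to 1.799 for the eggshell list, from 0.632 to 1.329 for the maternal list and from 0.45 to 1.014 for the DNA replication list, which was 0.523 with array weights. In limma the replicate block cannot change these medians, because with complete pairs its estimates equal those of the main fit. Of 22 lists, 10 kept the sign of their median in all alternatives.

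Leaving out libraries or pairs reversed the difference for sqd-1 (-0.96 to 0.094), vit-1 (-0.104 to 0.472) and col-88 (-1.281 to 3.264). It also reversed that of cul-6 (-1.33 to 0.356), myo-3 (-0.057 to 0.443) and mup-2 (-0.12 to 0.566, and -0.073 without adr-2(-) control replicate 3). The share of genes with a positive difference was 55.6%, and 64.6% with TMM scaling, 49.5% with upper-quartile scaling and 67.8% from the deposited fold changes, so the direction of differences near 0 depends on scaling. The median over all genes moved by less than 0.1 under each scaling. The larger spread of the adr-2(-) libraries limits what 3 pairs can show, and for genes within a few reads of 0 the depth does.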
